A study of Mus musculus with 40 samples.

Results

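Adult globin transcripts in Ter119+ erythroid cells of the spleen were set against those of the bone marrow in the 40 RNA-seq libraries of the series, which came from 20 mice that each gave both tissues. All libraries of the series entered the comparison. They were chosen by tissue, genotype and haplotype label and not by any measured value. The spleen and bone marrow groups of 5 libraries each were th3/+ single, WT single, th3/+ diffuse and WT diffuse. Here th3/+ stands for Hbb[th3/+], in which 1 chromosome lacks adult beta-globin genes, a mouse model of beta-thalassemia, and WT for wild type. Single and diffuse name the 2 beta-globin haplotypes. The beta genes are Hbb-bs with Hbb-bt on single and Hbb-b1 with Hbb-b2 on diffuse chromosomes. All mice carried the strain label C57BL/6J, and no age is given in the sources used here. Cells were isolated with anti-Ter119 magnetic beads, which bind a surface antigen of red cell precursors and red cells, and total RNA was sequenced after stranded library preparation. The study's stated aim was to learn how strongly disease severity depends on the haplotype. The tissue comparison compares the main site of red cell formation in adult mice with the site that is recruited when demand rises.

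Adult hemoglobin is built from alpha chains, encoded by Hba-a1 and Hba-a2, and beta chains, encoded by the pair of the haplotype. The globin genes are transcribed in nucleated erythroblasts, and the spliced mRNA persists in reticulocytes, which have lost their nucleus. Intron sequence is removed when the transcript is spliced, so intron counts come mainly from unspliced RNA and exon counts mainly from mRNA. In the bulk cells measured here, a different mix of erythroid stages and a different amount of RNA per cell cannot be told apart.

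Each of the 4 genes with a position in the GENCODE M21 annotation of mm10 has 3 exons and 2 introns. Hba-a1 (ENSMUSG00000069919.7) lies at chr11:32283511-32284465 on the plus strand, and its introns span 122 and 134 bases. Hba-a2 (ENSMUSG00000069917.7) lies at chr11:32296489-32297298 on the same strand, with introns of 122 and 134 bases. Hbb-bs (ENSMUSG00000052305.6) lies at chr7:103826534-103828096 on the minus strand, with introns of 113 and 654 bases. Hbb-bt (ENSMUSG00000073940.3) lies at chr7:103812524-103813996 on the minus strand, with introns of 116 and 654 bases. The beta-major gene Hbb-b1 and its beta-minor neighbour Hbb-b2 have no position in the annotation used.

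The alpha genes, and Hbb-bs with Hbb-bt, are nearly identical in coding sequence, which is shown because reads were divided within pairs. The sequences of Hbb-b1 and Hbb-b2 were not compared. Untranslated exon parts were not compared either, nor the second alpha introns or the introns of Hbb-bs and Hbb-bt. Which sequence differences the division of reads used is not given in the sources used here. The coding sequences of Hba-a1 and Hba-a2 differed at 1 of 426 positions, C381T, with the base of Hba-a1 first and positions counted from the start codon. Those of Hbb-bs and Hbb-bt differed at 1 of 441 positions, C417T, with the base of Hbb-bs first. The windows around these positions are given in the direction of transcription, with the differing base in capitals. They lie at chr11:32284313-32284373 (Hba-a1), chr11:32297130-32297190 (Hba-a2), chr7:103826668-103826722 (Hbb-bs) and chr7:103812659-103812713 (Hbb-bt).
Hba-a1: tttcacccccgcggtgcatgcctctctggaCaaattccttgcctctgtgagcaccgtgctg
Hba-a2: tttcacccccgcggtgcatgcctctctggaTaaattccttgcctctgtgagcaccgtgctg
Hbb-bs: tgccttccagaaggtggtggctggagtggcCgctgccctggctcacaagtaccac
Hbb-bt: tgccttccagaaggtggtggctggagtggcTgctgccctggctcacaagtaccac
The first intron is shown because most alpha intron reads were shared by the pair. Of its bases, 113 could be read for both alpha genes, from chr11:32283811-32283923 for Hba-a1 and chr11:32296628-32296740 for Hba-a2. They differed at 0 of 113 positions.
Hba-a1 intron 1: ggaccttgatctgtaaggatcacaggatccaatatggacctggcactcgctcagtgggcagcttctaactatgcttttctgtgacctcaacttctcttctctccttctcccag
Hba-a2 intron 1: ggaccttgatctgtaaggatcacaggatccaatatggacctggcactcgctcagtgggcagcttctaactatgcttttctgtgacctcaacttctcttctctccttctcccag
The annotation holds this stretch in transcripts with a retained intron, so it is also listed as exon there. How the authors' counting treated such transcripts is not given in the sources used here.

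Globin exon counts per library ranged between 10110962 and 29112305 in spleen and between 11613844 and 32381045 in bone marrow. Alpha intron counts ranged from 641 to 14155 in spleen and from 5653 to 18388 in bone marrow. Globin genes are themselves the erythroid markers that could be examined, and markers of other cell types were not analysed here. Of the 20 mice, 16 carried a code of 1 series, and the other 4 were WT single mice. Mice are numbered 1 to 5 within each genotype and haplotype, with the same number for both tissues of a mouse.

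Alpha intron counts per exon count were lower in spleen than in bone marrow in WT mice. Over the 10 th3/+ mice the spleen level within a mouse was 0.941 times that of bone marrow and did not pass the test. Over the 10 WT mice it was 0.395 times that of bone marrow, and it was lower in 9 of them. The measure divides all alpha intron counts, shared reads included, by all alpha exon counts of the same library, so it needs no scaling for depth.

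In th3/+ single mice 1 to 5, alpha intron counts were 0.126%, 0.149%, 0.136%, 0.135% and 0.150% of exon counts in spleen, against 0.102%, 0.195%, 0.141%, 0.164% and 0.176% in bone marrow. The log2 difference was -0.13 (-0.47 to 0.31, exact permutation adjusted p = 0.580). In th3/+ diffuse mice 1 to 5, they were 0.0999%, 0.113%, 0.139%, 0.129% and 0.170% in spleen, against 0.0946%, 0.139%, 0.147%, 0.123% and 0.171% in bone marrow. Here the log2 difference was -0.05 (-0.48 to 0.45, exact permutation adjusted p = 0.848). The groups overlapped in both haplotypes.

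In WT single mice 1 to 5, alpha intron counts were 0.146%, 0.106%, 0.144%, 0.054% and 0.051% of exon counts in spleen. In bone marrow of the same mice they were 0.211%, 0.177%, 0.270%, 0.176% and 0.272%. All 5 spleen libraries lay below all 5 bone marrow libraries. On the log2 scale spleen differed by -1.26 (95% interval -2.20 to -0.41, exact permutation p = 0.00794, adjusted p = 0.0635). That raw p is the smallest that 5 libraries against 5 allow.

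In WT diffuse mice 1 to 5, the levels were 0.149%, 0.119%, 0.208%, 0.024% and 0.030% in spleen, against 0.142%, 0.280%, 0.272%, 0.197% and 0.172% in bone marrow. Mice 2 to 5 were lower in spleen and the groups overlapped. On the log2 scale spleen differed by -1.42 (-3.12 to 0.07, exact permutation p = 0.0635, adjusted p = 0.218). Mice 4 and 5 had the lowest levels of all 40 libraries. Their intervals of 0.0231% to 0.0253% and 0.0279% to 0.0326% (95%, exact Poisson on 1917 and 641 intron counts, counting error only) did not reach any other library.

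**Figure D1:**
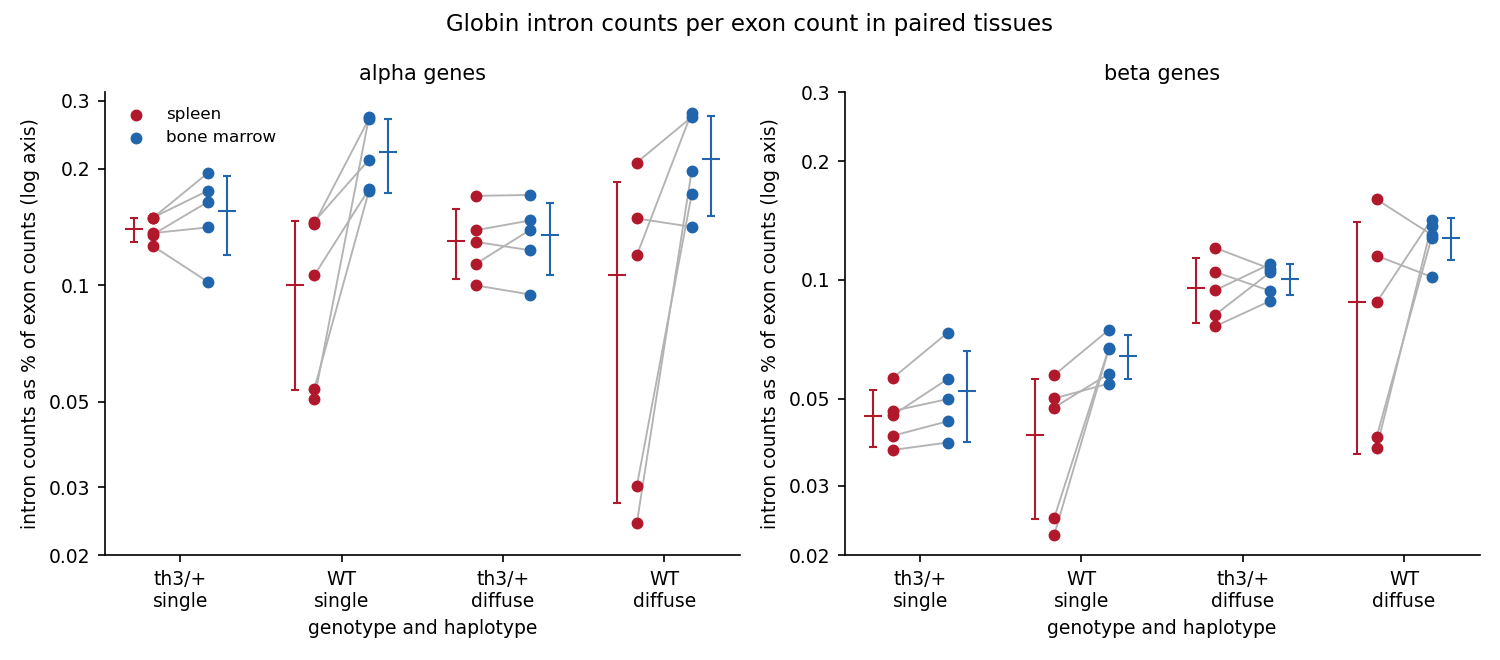
Alpha (left) and beta (right) intron counts as percent of exon counts, on log axes, by genotype and haplotype. Points are libraries, grey lines join both tissues of 1 mouse, and bars give mean ± SD of 5 libraries. In WT, 4 spleen libraries sit at 0.024% to 0.054% for alpha, below every other library.

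None of the 24 unpaired tests of intron per exon counts passed after adjustment (0.0%), although 6 had an unadjusted p under 0.05. The smallest adjusted p was 0.0635 (exact permutation), at the smallest raw p that 5 libraries against 5 allow, 0.00794. Whether a test at that floor passes depends on how many of the 24 stand there. limma called 0 of the 24 with the mouse as a block and 0 without it. Without WT single spleen library 3, all 6 WT single measures passed (alpha -1.43, exact permutation adjusted p = 0.0317). Without WT diffuse spleen library 3, alpha (-1.77), beta (-1.03) and first beta gene introns (-1.47) passed in WT diffuse mice (exact permutation adjusted p = 0.0423 for each). Paired by mouse and with both haplotypes pooled, 10 mice a test, 8 of 12 tests passed (66.7%). The smallest p there is 0.00195 (exact sign flip), against 0.00794 for the unpaired tests (exact permutation). The paired and unpaired counts thus differ in pooling and number of mice as well as in pairing. The th3/+ alpha difference was -0.09 (95% interval -0.24 to 0.07, exact sign-flip adjusted p = 0.264), with 3 of 10 mice higher in spleen. With uniquely assigned reads alone the th3/+ value turned to 0.11 (exact sign-flip adjusted p = 0.127). The WT alpha difference was -1.34 (-2.11 to -0.57, exact sign-flip p = 0.00391, adjusted p = 0.0293).

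The size of the WT difference rested in part on 4 spleen libraries, those of WT single mice 4 and 5 and WT diffuse mice 4 and 5. They held 16949788, 17819151, 29112305 and 10110962 exon counts, against 14581754 to 19336099 in the other 6 WT spleen libraries. The deepest and the shallowest WT spleen library were thus among them, and their other properties were not tested. Without these mice, a choice made after their values were seen and on the measure itself, the WT difference was -0.62 (-1.23 to 0.07, exact sign-flip adjusted p = 0.188) and 5 of 6 mice were lower in spleen. With 6 pairs the smallest exact sign-flip p is 0.0312. Leaving out 1 WT mouse kept the difference between -1.50 and -1.15. The adjusted p rose to between 0.0527 and 0.0586 without WT diffuse mouse 2, 4 or 5 or WT single mouse 2, 3, 4 or 5. The 1 WT single mouse with a code of the larger series, mouse 3, had a difference of -0.91, and the other 4 lay between -2.43 and -0.53.

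Beta intron counts per exon count were also lower in WT spleen. In WT single mice 1 to 5 they were 0.05003%, 0.0474%, 0.0573%, 0.0248% and 0.0225% in spleen, against 0.0546%, 0.0578%, 0.0747%, 0.0672% and 0.0669% in bone marrow. Each of these mice was lower in spleen. In WT diffuse mice 1 to 5 they were 0.115%, 0.0878%, 0.160%, 0.0375% and 0.0400% in spleen, against 0.102%, 0.142%, 0.130%, 0.137% and 0.128% in bone marrow. Mice 2, 4 and 5 were lower in spleen and mice 1 and 3 higher. Mice 4 and 5 of each haplotype, lowest in alpha, were also lowest in beta within their spleen group.

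Over the 10 th3/+ mice the beta difference was -0.14 (95% interval -0.28 to 0.00, exact sign-flip p = 0.0488, adjusted p = 0.0651), with 8 of 10 mice lower in spleen. Over the 10 WT mice it was -0.76 (-1.35 to -0.13, exact sign-flip p = 0.0215, adjusted p = 0.0368). In th3/+ spleen the level averaged 0.0451% ± 0.00739 on the single and 0.0955% ± 0.0179 on the diffuse haplotype, against 0.0524% ± 0.0135 and 0.101% ± 0.0091 in bone marrow (SD, n = 5 each). These means differed by less than 1 SD of the bone marrow libraries. Without the 4 low spleen libraries the WT difference was -0.17 (exact sign-flip adjusted p = 0.375). Without 1 WT mouse at a time it ranged from -0.87 to -0.63. The adjusted p was 0.0527 to 0.0645 without any of the 7 mice named for alpha. The th3/+ difference passed without th3/+ diffuse mouse 4 (-0.18, exact sign-flip adjusted p = 0.0352) or mouse 5 (-0.18, adjusted p = 0.0286). It also passed with uniquely assigned reads alone (-0.16, exact sign-flip adjusted p = 0.0469).

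The single genes were on average also lower in WT spleen, to different degrees. In uniquely assigned reads, the within-mouse differences were -1.13 for Hba-a1 (exact sign-flip adjusted p = 0.0293) and -1.05 for Hba-a2 (adjusted p = 0.0328), each lower in 9 of 10 WT mice. For the first beta gene of the haplotype it was -0.93 (exact sign-flip adjusted p = 0.0368), with means of -0.75 for Hbb-bs and -1.12 for Hbb-b1. For the second it was -0.60 (exact sign-flip adjusted p = 0.0293), with means of -0.86 for Hbb-bt and -0.34 for Hbb-b2. In either position, 8 of 10 WT mice were lower in spleen. All 4 of these calls were lost without any 1 of the 7 WT mice named above, with adjusted p of 0.0527 to 0.0645, and the differences stayed between -1.20 and -0.45. None of these 4 differences passed without the 4 low spleen libraries, where they lay between -0.34 and -0.18 (exact sign-flip adjusted p = 0.268 to 0.375).

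In th3/+ mice the single genes went different ways. Hba-a2 rose in spleen by 0.19 (95% interval 0.05 to 0.33), in 9 of 10 mice (exact sign-flip p = 0.00977, adjusted p = 0.0293). Hba-a1 stood at 0.06 (-0.10 to 0.21, exact sign-flip adjusted p = 0.412), higher in 6 of 10 mice. Uniquely assigned reads were the smaller part of the alpha intron counts, and the shared reads, described below, fell in the same mice. Their part in the Hba-a2 value was not tested. Without the 4 low WT spleen libraries the th3/+ values are the same, but the adjusted p of Hba-a2 was 0.117 because fewer tests in the family had a small p. The second beta gene fell by 0.19 in th3/+ spleen (exact sign-flip adjusted p = 0.0439), in 8 of 10 mice. That call was lost without th3/+ diffuse mouse 1, 2 or 3 or th3/+ single mouse 2, 3, 4 or 5 (differences -0.21 to -0.15, exact sign-flip adjusted p = 0.0645 to 0.0879). The first beta gene stood at -0.13 in th3/+ mice (exact sign-flip adjusted p = 0.185).

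The tissue difference in alpha introns differed between the genotypes. The per-mouse log2 differences of th3/+ single mice were 0.31, -0.39, -0.05, -0.28 and -0.23, against -0.53, -0.74, -0.91, -1.71 and -2.43 in WT single mice. All 5 th3/+ single mice lay above all 5 WT single mice. In th3/+ diffuse mice they were 0.08, -0.29, -0.08, 0.07 and -0.01, against 0.07, -1.23, -0.39, -3.03 and -2.51 in WT diffuse mice. WT diffuse mouse 1 lay within the th3/+ range.

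Over both haplotypes the difference of differences, th3/+ minus WT, was 1.25 (95% interval 0.52 to 1.98). The exact permutation p, with labels permuted within haplotype, was 0.000346 (adjusted p = 0.00624), and 5 of 18 such tests of intron per exon passed (27.8%). The call held with any 1 of the 20 mice left out (1.05 to 1.44, largest adjusted p = 0.0305). Without the 4 low spleen libraries the value was 0.53 (0.18 to 0.88, exact permutation p = 0.00351, adjusted p = 0.0631).

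On the single haplotype it was 1.14 (0.36 to 2.11, exact permutation adjusted p = 0.0286). Without th3/+ single mouse 1, 2, 3, 4 or 5 the value was 1.03 to 1.20 (exact permutation adjusted p = 0.0571 to 0.107). Genotype and mouse code series were confounded there for all WT mice but mouse 3. On the diffuse haplotype, where all mice had codes of 1 series, it was 1.37 (0.01 to 2.80, exact permutation p = 0.0476, adjusted p = 0.0952). limma with the mouse as a block gave an adjusted p of 0.0492 for that value, and 0.0704 without the block. It also passed without WT diffuse mouse 1 (1.74, exact permutation adjusted p = 0.0204).

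Hba-a1 and Hba-a2 gave differences of 1.19 (exact permutation adjusted p = 0.0117) and 1.24 (adjusted p = 0.0102) over both haplotypes. Hba-a2 also passed on the single haplotype at 1.20 (exact permutation adjusted p = 0.0286), lost without any 1 of the 5 th3/+ single mice (1.10 to 1.25, adjusted p = 0.0571 to 0.114). The beta sum did not pass, at 0.61 (0.03 to 1.19, exact permutation p = 0.0418, adjusted p = 0.0941). It passed without WT diffuse mouse 1 (0.73, exact permutation adjusted p = 0.0300) or mouse 3 (0.75, adjusted p = 0.0313). The first beta gene gave 0.80 and the second 0.41 (exact permutation adjusted p = 0.0941 and 0.117), and the first passed without WT diffuse mouse 1 (0.97, adjusted p = 0.0280) or mouse 3 (0.98, adjusted p = 0.0313).

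**Figure D2:**
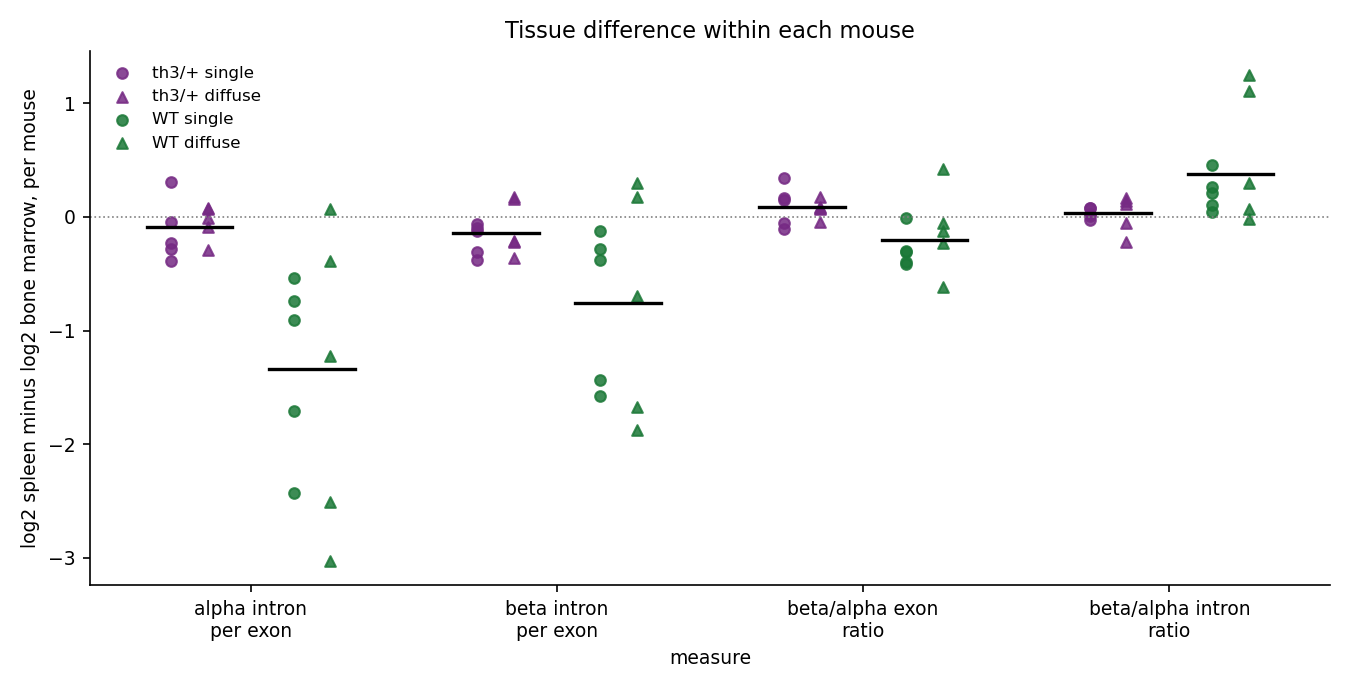
Log2 spleen minus log2 bone marrow within each mouse for 4 measures, th3/+ (purple) left of WT (green), with circles for single and triangles for diffuse mice and black lines for the mean of 10 mice. For alpha intron per exon the th3/+ mice lie near 0 and WT mice reach -3.03.

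Gene by gene, the features that edgeR called relative to alpha exon counts and without the mouse as a block were introns of WT single mice. edgeR called 4 of 24 WT tests lower in spleen (16.7%) and 0 of 24 higher. Other scalings ended most of these calls, with 1 call under TMM factors and 2 with all globin exon counts as offset. Alpha shared introns had a log2 fold of -1.19 (SE 0.27, adjusted p = 0.0202), Hbb-bs introns -0.97 (SE 0.24, adjusted p = 0.0202), Hbb-bt introns -0.98 (SE 0.24, adjusted p = 0.0202) and beta shared introns -0.81 (SE 0.21, edgeR adjusted p = 0.0258). Hba-a1 introns at -0.90 and Hba-a2 introns at -0.86 did not pass (edgeR adjusted p = 0.0561 for both). Of the 4 called features, alpha shared introns passed under both other scalings and the other 3 under neither. Hba-a1 and Hba-a2 introns passed with the mouse as a block (-1.07 and -0.99, edgeR adjusted p = 0.0431 for both) and in DESeq2 (adjusted p = 0.0207 for both).

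Exon counts of beta genes stood lower in WT single spleen without passing, at -0.33 for Hbb-bs (SE 0.10, edgeR adjusted p = 0.0560) and -0.20 for Hbb-bt (SE 0.07, edgeR adjusted p = 0.0941). With the mouse as a block both passed, at -0.32 and -0.20 (edgeR adjusted p = 0.0124 for both), and DESeq2 called Hbb-bs exons (adjusted p = 0.0255). Among WT diffuse features, Hbb-b1 introns were at -0.93 (SE 0.40) and Hbb-b2 introns at -0.35 (SE 0.20), against exon values of -0.13 and -0.08, and edgeR called none (adjusted p = 0.134 to 0.421 for the larger 3 of them and 0.614 for Hbb-b2 exons). With the mouse as a block, Hbb-b1 introns (-1.25) and alpha shared introns (-1.46) of WT diffuse mice passed (edgeR adjusted p = 0.0431 for both).

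In th3/+ mice edgeR called 0 of 24 tests, with 0 at an unadjusted p under 0.05, and DESeq2 called 0. Of the 24 tests of th3/+ minus WT, edgeR called 0, with 7 at an unadjusted p under 0.05, and DESeq2 called 2, Hbb-bs exons (0.46, adjusted p = 0.0266) and Hbb-bt exons (0.31, adjusted p = 0.0441). With the mouse as a block, edgeR called 11 of 24 in WT, among them Hba-a2 exons of single mice as the 1 higher in spleen (0.05, edgeR adjusted p = 0.0426), and 4 of 24 for th3/+ minus WT. The 4 were Hbb-bs exons (edgeR adjusted p = 0.0124), Hbb-bt exons (adjusted p = 0.0124), and alpha shared and Hbb-bs introns of the single haplotype (adjusted p = 0.0431). The WT count was 0 without WT single bone marrow library 3 or 5 or WT single spleen library 4. Beta shared introns also missed the threshold when WT single bone marrow library 1 was left out (-0.77, edgeR adjusted p = 0.0691). The WT count was 7 without WT single bone marrow library 4 or WT single spleen library 3, 8 without WT single spleen library 1, and 11 without WT diffuse spleen library 3. For th3/+ minus WT there were 6 calls without WT single spleen library 3 and 5 without WT single spleen library 1. There were 2 without WT diffuse spleen library 3, WT single bone marrow library 4, th3/+ single bone marrow library 2 or th3/+ single spleen library 5, and 1 without WT single spleen library 5 or th3/+ single bone marrow library 4.

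**Figure D3:**
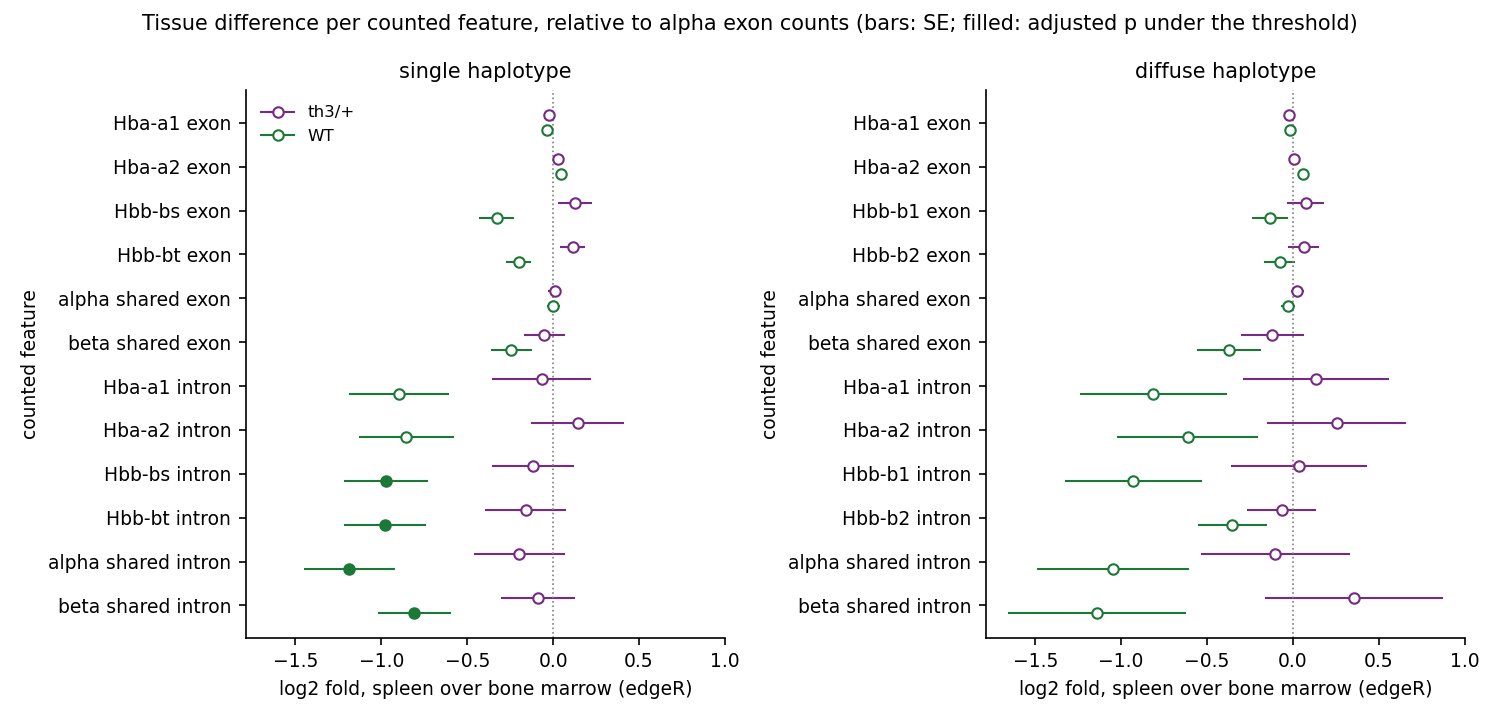
edgeR log2 folds of spleen over bone marrow per counted feature, relative to the alpha exon counts of the library, for th3/+ (purple, above) and WT (green, below) on the single (left) and diffuse (right) haplotype. Bars are SE and filled points have an adjusted p under 0.05. The filled points are 4 WT single intron features between -1.19 and -0.81.

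The tissue difference in the beta/alpha ratio of exon counts differed between the genotypes, while neither genotype passed on its own with all alpha counts as denominator. In th3/+ single mice 1 to 5 it was 1.39, 1.23, 1.27, 1.23 and 1.11 in spleen, against 1.09, 1.27, 1.14, 1.32 and 0.995 in bone marrow. In WT single mice it was 2.35, 1.88, 2.14, 2.03 and 2.22 in spleen, against 2.89, 2.502, 2.66, 2.04 and 2.92 in bone marrow. In spleen, 3 of 5 th3/+ single mice were higher and all 5 WT single mice were lower.

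In th3/+ diffuse mice 1 to 5 the exon ratio was 1.41, 1.55, 1.48, 1.56 and 1.44 in spleen, against 1.35, 1.37, 1.39, 1.48 and 1.49 in bone marrow. In WT diffuse mice it was 2.80, 2.73, 2.73, 2.67 and 3.76 in spleen, against 3.06, 3.21, 4.18, 2.77 and 2.82 in bone marrow. WT diffuse mouse 5 was the 1 WT mouse with the higher ratio in spleen.

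None of the 8 unpaired tests of the exon or intron ratio passed (0.0%), with 2 at an unadjusted p under 0.05, and limma called 0 with or without the mouse as a block. Within mice the exon ratio differed by 0.09 in th3/+ (exact sign-flip adjusted p = 0.0859) and by -0.20 in WT (exact sign-flip adjusted p = 0.0859), lower in 9 of 10 WT mice. The WT value passed without WT diffuse mouse 5 (-0.27, exact sign-flip adjusted p = 0.0156). It also passed over all WT mice with Hba-a2 alone as denominator (-0.26, exact sign-flip adjusted p = 0.0469). The th3/+ minus WT difference was 0.29 over both haplotypes (95% interval 0.08 to 0.49, exact permutation adjusted p = 0.0296), as 1 of 4 calls among 6 tests of the ratios (66.7%). It was 0.39 on the single haplotype (0.13 to 0.64, exact permutation adjusted p = 0.0357) and 0.19 on the diffuse haplotype (-0.17 to 0.55, exact permutation adjusted p = 0.341).

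The call over both haplotypes was lost without WT single mouse 5 (0.28, exact permutation adjusted p = 0.0512) or th3/+ single mouse 1 (0.26, adjusted p = 0.0513), and with Hba-a1 alone as denominator (0.29, adjusted p = 0.0714). The value without the 4 low spleen libraries was 0.42 (exact permutation adjusted p = 0.00191). The single haplotype call was lost without WT single mouse 1, 2, 3 or 5 or th3/+ single mouse 1, 3 or 5 (0.32 to 0.38, exact permutation adjusted p = 0.0595 to 0.0635). The diffuse value passed without WT diffuse mouse 5 (0.33, exact permutation adjusted p = 0.0238). No genotype call of either ratio, exon or intron, held when all 48 genotype tests were adjusted as 1 family.

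The beta/alpha ratio of intron counts was higher in WT spleen when shared reads were included. In WT diffuse mice 1 to 5 it was 2.17, 2.01, 2.10, 4.14 and 4.99 in spleen, against 2.20, 1.63, 2.00, 1.93 and 2.10 in bone marrow. Mice 4 and 5 stood far above the other 3 in spleen. The ratio of WT single mice was 0.804, 0.842, 0.853, 0.938 and 0.984 in spleen, against 0.747, 0.815, 0.736, 0.781 and 0.717 in bone marrow.

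Within WT mice the intron ratio rose by 0.38 in spleen (95% interval 0.10 to 0.71), in 9 of 10 mice (exact sign-flip adjusted p = 0.0156), as 1 of 4 paired tests of the ratios that passed (25.0%). In th3/+ mice the difference was 0.03 (-0.05 to 0.11, exact sign-flip adjusted p = 0.418). There the ratio averaged 0.399 ± 0.0236 on the single and 1.10 ± 0.104 on the diffuse haplotype in spleen, against 0.391 ± 0.0282 and 1.08 ± 0.124 in bone marrow (SD, n = 5 each).

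This WT call depended on the shared alpha reads and on the low libraries. It was 0.12 with uniquely assigned reads alone (exact sign-flip adjusted p = 0.529), 0.20 with Hba-a1 alone as denominator (adjusted p = 0.328) and 0.04 with Hba-a2 alone (adjusted p = 0.832). Without the 4 low spleen libraries it was 0.12 (exact sign-flip adjusted p = 0.0859). In th3/+ mice the value turned to -0.16 with uniquely assigned reads alone (exact sign-flip adjusted p = 0.00781), lower in spleen, and to -0.26 with Hba-a2 alone as denominator (adjusted p = 0.00781).

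The th3/+ minus WT difference in the intron ratio was -0.35 over both haplotypes (95% interval -0.65 to -0.06, exact permutation adjusted p = 0.0296). It was -0.29 with uniquely assigned reads alone (exact permutation adjusted p = 0.250) and -0.09 without the 4 low spleen libraries (adjusted p = 0.212). It was also lost without WT single mouse 5, th3/+ single mouse 1 or th3/+ diffuse mouse 1 or 3 (-0.34 to -0.32, exact permutation adjusted p = 0.0512 to 0.0683). On the single haplotype it was -0.18 (exact permutation adjusted p = 0.0357), lost without WT single mouse 5 or any 1 of the 5 th3/+ single mice (-0.20 to -0.13, adjusted p = 0.0595 to 0.0952). On the diffuse haplotype it was -0.51 (-1.22 to 0.10, exact permutation adjusted p = 0.152), and it passed without WT diffuse mouse 1 (-0.65, adjusted p = 0.0381).

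**Figure D4:**
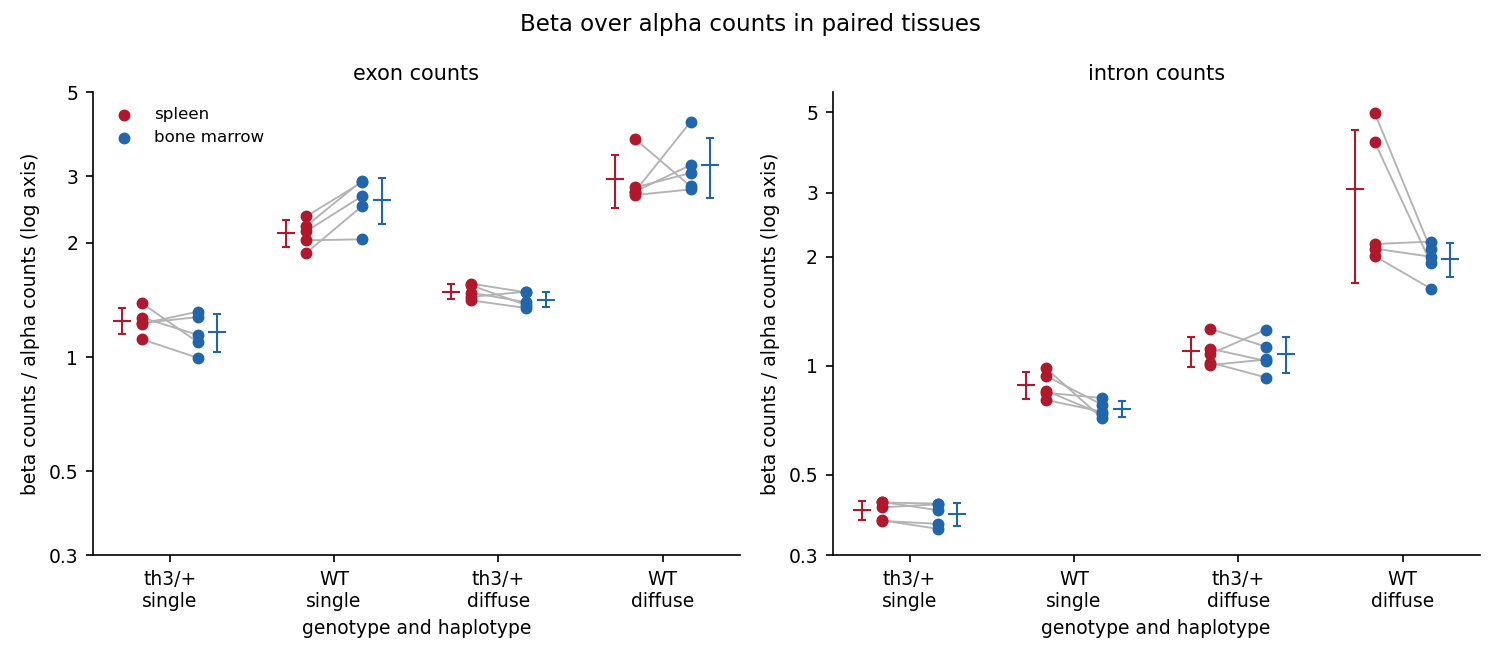
Beta over alpha counts in exons (left) and introns (right), on log axes, by genotype and haplotype. Points are libraries, grey lines join both tissues of 1 mouse, and bars give mean ± SD of 5 libraries. In introns, WT diffuse spleen mice 4 and 5 stand at 4.14 and 4.99.

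Within the alpha pair, Hba-a2 took a slightly larger share of uniquely assigned counts in spleen in both genotypes. The Hba-a2 exon share averaged 38.7% ± 0.445 in th3/+ single and 38.6% ± 0.660 in th3/+ diffuse spleen, against 37.9% ± 0.350 and 38.2% ± 0.856 in bone marrow (SD, n = 5 each). In WT single and WT diffuse spleen it averaged 41.1% ± 0.716 and 40.7% ± 0.886, against 39.7% ± 0.813 and 39.5% ± 0.666 in bone marrow (SD, n = 5 each). Each group mean was higher in spleen, by less than 1 SD of the spleen libraries in th3/+ diffuse mice and by more than 1 SD in the other 3 arms.

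None of the 16 unpaired tests of gene shares passed (0.0%), with 4 at an unadjusted p under 0.05. limma called 1 of them without the block and 0 with it. Without th3/+ single spleen library 2, the Hba-a2 exon share (0.06) and intron share (0.20) of th3/+ single mice passed (exact permutation adjusted p = 0.0423 for both). Of the 8 paired tests, which pool both haplotypes, 4 passed (50%), all of Hba-a2. The exon share rose within mice by 0.04 log2 odds in th3/+ (95% interval 0.02 to 0.06) and by 0.08 in WT (0.03 to 0.12), in 9 of 10 mice of each genotype (exact sign-flip adjusted p = 0.0208 for both). The intron share rose by 0.17 in th3/+ (exact sign-flip adjusted p = 0.0208) and by 0.16 in WT (adjusted p = 0.0391), again in 9 of 10 mice of each.

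The Hba-a2 intron share of th3/+ single mice 1 to 5 was 43.2%, 42.4%, 40.6%, 40.6% and 40.7% in spleen, against 36.9%, 36.1%, 39.2%, 38.9% and 38.3% in bone marrow. That of WT diffuse mice was 41.0%, 40.6%, 41.5%, 43.6% and 42.9% in spleen, against 36.0%, 35.4%, 40.04%, 39.7% and 38.5% in bone marrow. In both arms all 5 spleen libraries lay above all 5 bone marrow libraries (p = 0.00794 by exact permutation, 0.0635 after adjustment). In the remaining arms the tissues overlapped. WT single mice averaged 41.0% ± 1.52 in spleen and 39.8% ± 1.38 in bone marrow (SD, n = 5 each, exact permutation adjusted p = 0.409). For th3/+ diffuse mice the means were 40.7% ± 1.86 and 38.7% ± 1.75 (SD, n = 5 each).

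The th3/+ exon call was lost with shared reads in the denominator (0.02, exact sign-flip adjusted p = 0.169). The WT exon call was lost without the 4 low spleen libraries (0.03, exact sign-flip adjusted p = 0.188). The WT intron call was lost there too (0.12, exact sign-flip adjusted p = 0.350). It was also lost without any 1 WT diffuse mouse or without WT single mouse 3, 4 or 5 (0.14 to 0.17, exact sign-flip adjusted p = 0.0547 to 0.0781). No difference in these tissue effects between th3/+ and WT passed in 12 tests of gene shares (0.0%), with 1 at an unadjusted p under 0.05 and 0 called by limma with or without the block.

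For the exon share of the second beta gene in its pair, no test passed over all mice. Hbb-bt averaged 21.04% ± 0.552 of exon counts in th3/+ single and 20.2% ± 0.608 in WT single spleen, against 21.3% ± 0.944 and 18.9% ± 1.34 in bone marrow (SD, n = 5 each). Hbb-b2 averaged 17.8% ± 0.470 in th3/+ diffuse and 16.1% ± 1.20 in WT diffuse spleen, against 17.9% ± 0.893 and 15.5% ± 0.425 in bone marrow (SD, n = 5 each). Within mice the log2 odds differed by -0.02 in th3/+ (exact sign-flip adjusted p = 0.559) and by 0.09 in WT (adjusted p = 0.109), where 8 of 10 mice were higher in spleen. The WT value passed without WT diffuse mouse 5 (0.12, exact sign-flip adjusted p = 0.0391). The th3/+ minus WT difference was -0.11 over both haplotypes (exact permutation adjusted p = 0.267), and it passed without the 4 low spleen libraries (-0.16, adjusted p = 0.0497).

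The Hbb-b2 intron share was 35.8%, 39.1%, 36.7%, 57.9% and 65.7% in spleen of WT diffuse mice 1 to 5, against 38.3%, 26.9%, 34.0%, 29.2% and 37.3% in bone marrow. Mice 4 and 5, lowest in alpha and beta intron counts, thus had more Hbb-b2 than Hbb-b1 intron counts in spleen (log2 odds difference of the arm 0.85, exact permutation adjusted p = 0.148). So did bone marrow of th3/+ diffuse mouse 1, at 55.6%. The th3/+ diffuse libraries averaged 41.0% ± 4.41 in spleen and 42.8% ± 8.33 in bone marrow (SD, n = 5 each). For WT single mice the Hbb-bt intron share averaged 26.4% ± 0.992 in spleen and 26.3% ± 0.803 in bone marrow (SD, n = 5 each).

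Fewer alpha intron reads were shared by Hba-a1 and Hba-a2 in spleen than in bone marrow, in both genotypes. In th3/+ single mice 1 to 5 shared reads took 82.5%, 82.1%, 81.4%, 81.04% and 80.7% of alpha intron counts in spleen, against 82.9%, 85.6%, 83.0%, 82.9% and 83.2% in bone marrow. All 5 spleen libraries lay below all 5 bone marrow libraries. In th3/+ diffuse mice the share was 80.8%, 81.7%, 81.2%, 78.7% and 80.5% in spleen, against 81.4%, 83.2%, 84.8%, 83.3% and 83.8% in bone marrow. Every th3/+ mouse was lower in spleen.

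WT single mice 1 to 5 had 84.2%, 85.1%, 85.8%, 85.4% and 88.4% in spleen, against 88.7%, 86.9%, 89.1%, 85.9% and 88.03% in bone marrow. WT diffuse mice had 83.1%, 84.1%, 84.6%, 78.4% and 86.9% in spleen, against 86.8%, 87.5%, 87.3%, 84.5% and 86.2% in bone marrow. Mouse 5 of each haplotype was the exception, with the higher share in spleen.

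Of the 8 paired tests of shared reads, which pool both haplotypes, 2 passed (25.0%), both of alpha introns. The log2 odds were lower in spleen by -0.23 in th3/+ (95% interval -0.33 to -0.13), in 10 of 10 mice (exact sign-flip p = 0.00195, adjusted p = 0.0156), the smallest p that 10 pairs allow. In WT the difference was -0.29 (-0.46 to -0.11), in 8 of 10 mice (exact sign-flip adjusted p = 0.0469). The WT call was lost without WT diffuse mouse 1, 2, 3 or 4 or WT single mouse 1, 2, 3 or 4 (-0.31 to -0.25, exact sign-flip adjusted p = 0.0625 to 0.0938). The WT difference without the 4 low spleen libraries was -0.39 (exact sign-flip adjusted p = 0.120).

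The difference between the genotypes in alpha shared introns was 0.06 (-0.13 to 0.24, exact permutation adjusted p = 0.799). Over all genotype tests of shared reads, alpha and beta, 0 of 12 passed (0.0%). Of these 12, 1 had an unadjusted p under 0.05, and limma called 1 with or without the block. Beta shared introns of diffuse mice, at most 0.898% of intron counts of the pair, differed on average by -0.89 in WT and by 0.39 in th3/+. None of the 16 unpaired tests of shared reads passed (0.0%), with 3 at an unadjusted p under 0.05 and 0 called by limma.

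In exons the share of alpha reads that was shared lay between 29.1% and 34.5% in spleen and between 28.3% and 36.3% in bone marrow. Within mice it differed by 0.03 log2 odds in th3/+ and by -0.02 in WT (exact sign-flip adjusted p = 0.451 and 0.574). Reads shared by Hbb-bs and Hbb-bt took 15.6% ± 1.25 of beta exon counts in th3/+ single and 17.2% ± 1.80 in WT single spleen, against 17.3% ± 0.250 and 16.5% ± 0.708 in bone marrow (SD, n = 5 each). In diffuse libraries beta shared reads were at most 0.0114% of exon counts. The paired th3/+ difference in beta shared exon reads was -0.21 (exact sign-flip adjusted p = 0.120), and it passed without th3/+ diffuse mouse 3 (-0.27, exact sign-flip adjusted p = 0.0312).

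**Figure D5:**
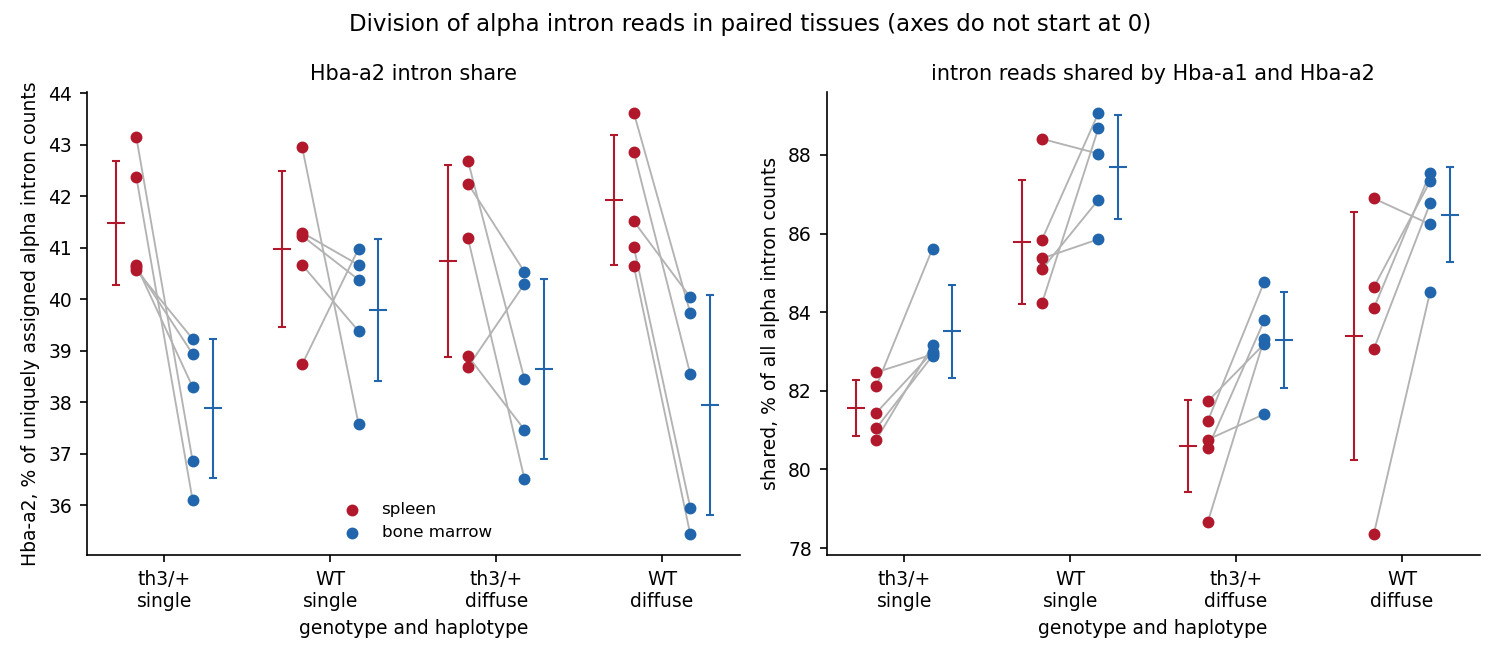
Hba-a2 share of uniquely assigned alpha intron counts (left) and share of all alpha intron counts that Hba-a1 and Hba-a2 share (right), in percent on axes that do not start at 0. Points are libraries, grey lines join both tissues of 1 mouse, and bars give mean ± SD of 5 libraries. The shared part is lower in spleen in all 10 th3/+ mice.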

How the data were processed

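The authors deposited raw read counts per globin gene and library, separately for exons and introns, per the file headers. STAR 2.7.9a, STAR 2.5.3a, SAMtools, HTSeq and mm10 are named without roles in the submitters' processing notes. A stranded total RNA kit was used, per the labels' protocols. How strand and multiply mapped reads were handled is not stated there. Count columns headed by a pair or as ambiguous were taken as reads shared by the genes of a pair, a meaning the headers do not state. The 32 columns of derived values were not used.

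All globin genes of the table are named. The members and lists were chosen with earlier results of these data known. Intron per exon, ratios and odds of shares were formed per library with 0.5 added to each count, on the log2 scale. Spleen and bone marrow were compared within each genotype and haplotype by exact two-sided permutation (252 splits, smallest p 0.00794). Within mice they were compared by exact sign flips over the 10 mice of a genotype, haplotypes together (1024 patterns, smallest p 0.00195). Differences of th3/+ and WT mice were permuted within haplotype (63504 regroupings). Adjustment was by Benjamini-Hochberg per kind of measure, with a threshold of 0.05, and 95% intervals came from test inversion. Mice were paired by the mouse code, which both tissues of an animal share. The deviations of the tissues from their group means correlated with a median r of 0.156 over 16 measures, as a description. Nothing more is known of how the 5 mice of a group relate, and the tests take these mice as independent. Unpaired tests also treated both libraries of a mouse as independent, while paired tests used the differences within mice.

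edgeR 4.0.16 (quasi-likelihood test) used alpha exon counts as offset, per haplotype, adjusted over 72 tests. limma 3.58.1 and DESeq2 1.42.0 were alternatives, in R 4.3.3. Python 3.11.15 with numpy 2.4.6, scipy 1.17.1 and pandas 2.3.3 was used elsewhere. The edgeR step was run on 20 simulated sets with WT spleen introns at a fold of 0.5. It called 240 of 240 changed and 5 of 720 unchanged tests. The simulated spread was a fixed setting and not fitted to these libraries, so these counts do not give power or error for them. Libraries held 10110962 to 32381045 exon counts. Reads carried no stated molecular identifiers, so intervals on counts cover counting error only. Sequences are from GENCODE M21 transcripts on mm10. Other settings and each library left out are given in the closing section.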

Additional observations from a re-analysis of the deposited data

Results flagged for a closer look

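In 8 of 128 groups of 5 libraries, 1 library lay apart from the other 4, where chance gives about 1 in 20. The beta/alpha exon ratio was 3.76 in WT diffuse spleen mouse 5, against 2.67 to 2.80 in the other 4. The second beta gene exon share was 18.6% in th3/+ diffuse spleen mouse 4. The Hba-a2 exon share was 37.9% in th3/+ single spleen mouse 2. Shared alpha exon reads were 29.1% in WT diffuse spleen mouse 4 and 31.2% in WT single spleen mouse 1. Shared alpha intron reads were 85.6% in th3/+ single bone marrow mouse 2. Shared beta exon reads were 14.1% in WT single spleen mouse 5, and shared beta intron reads were 8.49% in th3/+ single bone marrow mouse 5.

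The tissue difference differed between th3/+ and WT, by exact permutation of the genotype labels, in 9 tests of 5 measures, several of them on a subset of the same mice. These calls were adjusted per kind of measure. With all 48 genotype tests adjusted as 1 family, 3 passed (exact permutation, smallest adjusted p = 0.0166). All 3 were of intron per exon counts over both haplotypes, and no ratio passed. For intron per exon counts the values were 1.25 (alpha, both haplotypes), 1.14 (alpha, single), 1.19 (Hba-a1, both), 1.24 (Hba-a2, both) and 1.20 (Hba-a2, single). For the beta/alpha exon ratio they were 0.29 (both) and 0.39 (single), and for the intron ratio -0.35 (both) and -0.18 (single).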

How the results depend on the processing

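Values are log2 differences of spleen minus bone marrow, or th3/+ minus WT differences of these. With shared reads left out, the paired beta/alpha intron ratio was 0.12 in WT and -0.16 in th3/+, unpaired it was -0.014 (WT single), -0.19 (th3/+ diffuse) and -0.14 (th3/+ single), and the genotype difference was -0.29. Alpha intron per exon was then 0.11 in th3/+ mice (0.18 diffuse and 0.040 single, unpaired). The paired th3/+ beta value was -0.16, which then passed (exact sign-flip adjusted p = 0.0469). With Hba-a1 as denominator the intron ratio was 0.20 (WT) and -0.092 (th3/+) within mice, -0.14 (th3/+ diffuse) and -0.045 (th3/+ single) unpaired, and its genotype difference -0.29, against 0.29 for the exon ratio. With Hba-a2 as denominator these were 0.039 (WT), -0.26 (th3/+), -0.033 (WT single), -0.27 (th3/+ diffuse), -0.26 (th3/+ single) and -0.30. The WT exon ratio was then -0.26 within mice, which passed (exact sign-flip adjusted p = 0.0469). The cause of these changes was not tested beyond the reads each setting leaves out.

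With shared reads in the denominator, the Hba-a2 exon share was 0.022 in th3/+, the second beta exon share 0.0024 in th3/+ and 0.018 in th3/+ single mice, the second beta intron share -0.024 in WT single mice and the genotype difference of the Hba-a2 intron share -0.046. Dividing them evenly gave an Hba-a2 intron share of -0.0014 in WT single mice. On a linear scale the genotype differences in shared intron reads were -0.044 (alpha, single) and -0.37 (beta, both haplotypes), in percentage points.

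Without the 4 low WT spleen libraries, a choice made after seeing the data, the paired WT values were -0.62 (alpha intron per exon), -0.17 (beta), 0.12 (intron ratio) and 0.032 (Hba-a2 exon share). Genotype differences were 0.53 (alpha intron per exon), -0.017 (beta, diffuse), -0.010 and -0.12 (second beta gene, both and diffuse), -0.089 (intron ratio), -0.16 (second beta exon share, which then passed), 0.0073 and 0.021 (Hba-a2 exon share, both and single) and -0.069 (beta shared exon reads, diffuse). In WT single mice the shared alpha exon reads were -0.027 and the second beta intron share -0.0015.

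edgeR calls in WT were 7 with DESeq2, 1 with TMM factors, 2 with all globin exon counts as offset and 11 with the mouse as replicate block. For th3/+ minus WT they were 2 with DESeq2 and 4 with the replicate block. Leaving out 1 library gave 0 to 11 calls in WT and 0 to 6 for th3/+ minus WT.

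Leaving out 1 mouse, the paired values ranged from -1.50 to -1.15 (WT alpha intron per exon), -0.87 to -0.63 (WT beta), -0.18 to -0.12 (th3/+ beta), -0.27 to -0.16 (WT exon ratio) and 0.073 to 0.12 (WT second beta exon share). Genotype differences over both haplotypes ranged from 0.47 to 0.75 (beta intron per exon), 0.23 to 0.36 (exon ratio), -0.42 to -0.26 (intron ratio) and -0.011 to 0.046 (Hba-a2 intron share). Single arms ranged from -0.026 to 0.041 and -0.037 to 0.11 (alpha shared exon and intron reads, single) and -0.13 to 0.14 (beta shared exon reads, diffuse). Leaving out 1 library, the unpaired alpha intron per exon ranged from -1.77 to -0.998 (WT diffuse), -1.44 to -1.05 (WT single) and -0.17 to 0.045 (th3/+ diffuse), and beta from -1.03 to -0.50 (WT diffuse) and -0.91 to -0.57 (WT single). Hba-a1 ranged from -0.14 to 0.028 (th3/+ single) and the first beta gene from -0.18 to 0.049 (th3/+ diffuse). The intron ratio ranged from -0.025 to 0.086 (th3/+ diffuse) and -0.00086 to 0.057 (th3/+ single). The Hba-a2 exon share ranged from 0.044 to 0.064 (th3/+ single). The second beta exon share ranged from -0.042 to 0.016 (th3/+ diffuse) and -0.051 to 0.0031 (th3/+ single), and its intron share from -0.018 to 0.022 (WT single) and -0.24 to 0.081 (th3/+ diffuse). Shared alpha exon reads ranged from -0.020 to 0.046 (WT single) and -0.011 to 0.041 (th3/+ single), and shared beta intron reads from -0.029 to 0.074 (th3/+ single).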

Other observations

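Counts assigned to the beta genes of the other haplotype differed between the tissues, in CPM of the library's beta exon counts. In WT single mice, Hbb-b1 averaged 463 ± 277 in spleen and 143 ± 19.8 in bone marrow, and Hbb-b2 averaged 94.0 ± 64.1 in spleen and 20.98 ± 6.02 in bone marrow (SD, n = 5 each). Both were higher in spleen in 5 of 5 mice (exact permutation adjusted p = 0.0317 for each). In WT diffuse mice, Hbb-bs averaged 263 ± 240 in spleen and 52.5 ± 16.1 in bone marrow (SD, n = 5 each, exact permutation adjusted p = 0.0317), higher in 5 of 5 mice. In th3/+ single mice, Hbb-b2 averaged 202.1 ± 22.6 in spleen and 256 ± 30.1 in bone marrow (SD, n = 5 each, exact permutation adjusted p = 0.0317), lower in 5 of 5 mice. The other 4 comparisons of this kind did not pass (exact permutation adjusted p = 0.0508 to 0.913). Whether these counts are misassigned reads was not tested.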
